A study of Mus musculus with 6 samples.

Results

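The TGF-beta ligands and receptors were followed here as 9 genes: the ligands Tgfb1, Tgfb2 and Tgfb3, the latent TGF-beta binding proteins Ltbp1 and Ltbp4, the receptors Tgfbr1, Tgfbr2 and Tgfbr3, and Tgfbi, a matrix protein gene named for its induction by TGF-beta. They were chosen by symbol, and all 9 were found among the 31053 genes of the count matrices. They were measured by single-cell RNA sequencing (10x Genomics Chromium, 3' ends) in 6 libraries from adult C57BL6 mice, with no other genotype and no treatment. In 4 libraries, labelled Brain, the cells came from the surface of the cerebral cortex with its leptomeninges (cortical surface-associated, CSA1 to CSA4), and in 2 libraries, labelled Dura/Skull, from the connective tissue of the inner skull, mainly dura (bone-associated, BA1 and BA2). Each library pooled several mice and the mice were not perfused, so immune cells could be of blood or tissue. Live cells were sorted as DRAQ5-positive and propidium iodide-negative, and the study compared the cells of these borders of the brain with one another. The 2 preparations differ in tissue, dissection and digestion together, so these cannot be told apart in any comparison between them.

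TGF-beta is made as a latent complex. The ligand dimer stays bound to its own propeptide, which latent TGF-beta binding proteins tether to the matrix, or Lrrc32 and Nrros to the surface of a cell, until integrins, thrombospondin or proteases free it. The freed ligand is bound by the type II receptor Tgfbr2, which recruits and phosphorylates the type I receptor Tgfbr1, and Smad2 and Smad3 then carry the signal to the nucleus. Tgfbr3, or betaglycan, is a co-receptor that presents ligand, above all TGF-beta 2, which binds Tgfbr2 weakly on its own. In brain, microglia depend on TGF-beta signalling for their identity, and Smad7, Ski and Skil are feedback inhibitors whose genes respond to the pathway.

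The libraries held 951 to 5602 barcodes and 8408685 to 56169736 UMIs each, a UMI being 1 counted RNA molecule. After filters on genes, mitochondrial share and doublets, 8680 cells were kept (5272 cortical surface, 3408 bone-associated), at a median of 5468 to 9525 UMIs per cell. Of these, 222 cells carried no class name. CSA3 and CSA4 stood apart: hemoglobin genes took 84.6% and 71.9% of all their UMIs and 17.6% and 11.9% in the kept cells, against 0.0908 to 0.520% of all UMIs in the other 4 libraries. Levels by class below are therefore given as CPM, UMIs per 1000000 non-hemoglobin UMIs, and each count of genes was repeated without these 2 libraries. At most 2 barcodes were shared by any pair of libraries. The clusters were rebuilt without the 9 genes and the pathway lists and named from their markers, so class names stand for "like" that type. Mesenchymal-like cells are named by preparation alone, as leptomeningeal in the cortical surface preparation (265 cells) and dural in the bone-associated one (284 cells). All 8 mesenchymal markers were detected in both. Other groups are called by 1 or 2 of their leading genes, chosen after the clusters had been seen. Among them, Gkn3 Gja5 cells were also led by most endothelial markers, Ccl19 Colec11 cells by most pericyte markers and Olfr558 cells by markers of pericytes and vascular smooth muscle cells.

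The ligand genes lie apart in the genome. The promoters of Tgfb1 and Tgfb2, which were highest in different cell classes though some classes held both, are shown as a description. On GRCm38, with the GENCODE annotation, Tgfb1 spans chr7:25687002-25705077 on the plus strand, Tgfb2 chr1:186622792-186705989 on the minus strand and Tgfb3 chr12:86056745-86079041 on the minus strand. Ltbp1 spans chr17:75005568-75392512 (plus) and Ltbp4 chr7:27305136-27337692 (minus). Tgfbr1 spans chr4:47353222-47414931 (plus), Tgfbr2 chr9:116084293-116175360 (minus), Tgfbr3 chr5:107106570-107289629 (minus) and Tgfbi chr13:56609523-56639562 (plus). Counts are of whole genes, from the 3' end of their transcripts, and do not say which promoter was used. The 250 bases before the start of Tgfb1 (chr7:25686752-25687001, plus strand) and of Tgfb2 (chr1:186705990-186706239, minus strand) are given 5' to 3' from RefSeq on GRCm38.p6, where 7 of the 9 genes had an entry. Capitals mark matches, which do not overlap, to 5 motifs searched on both strands. They were the TATA box, read as TATAAA or on the other strand as TTTATA. The GC box was read as GGGCGG or on the other strand as CCGCCC. The CCAAT box was read as CCAAT or on the other strand as ATTGG. The E box was read as CACGTG, and the cyclic AMP response element was searched as TGACGTCA.
Tgfb1: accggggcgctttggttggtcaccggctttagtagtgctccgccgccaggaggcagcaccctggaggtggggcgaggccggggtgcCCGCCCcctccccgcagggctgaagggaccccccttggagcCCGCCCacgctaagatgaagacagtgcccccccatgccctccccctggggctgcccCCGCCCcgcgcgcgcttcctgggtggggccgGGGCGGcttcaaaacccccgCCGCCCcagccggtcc
Tgfb2: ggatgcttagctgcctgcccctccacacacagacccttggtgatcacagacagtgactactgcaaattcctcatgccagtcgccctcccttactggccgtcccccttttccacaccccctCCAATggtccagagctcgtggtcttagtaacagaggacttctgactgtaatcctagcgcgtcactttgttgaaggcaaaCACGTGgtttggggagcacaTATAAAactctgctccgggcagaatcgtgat
The Tgfb1 window was 75.2% G or C and held 5 GC boxes, which 32.7% of 32851 promoter windows of that length hold at least once, and no TATAAA. The Tgfb2 window was 53.6% G or C and held no GC box, but TATAAA, which 12.4% of the windows hold, from 31 bases before the start. It also held CACGTG (6.02% of windows) from 51 bases before the start and 1 CCAAT (33.9% of windows). The cyclic AMP response element (1.55% of windows) was found in neither. These are matches of letters and were not tested as sites.

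The ligands differed in the classes that held most of them. Tgfb1, the ligand best known from immune cells, was read in nearly every class. In cortical surface libraries its mean level was highest in cells led by Cd300e and Treml4, genes of patrolling monocytes, and in microglia. It was 443 ± 60.5 CPM (SD, n = 2, CSA3 and CSA4) in the former and 416 ± 76.1 (n = 4) in microglia. These overlapped, but over unlike sets of libraries. In the bone-associated libraries the Cd300e Treml4 cells were again first at 758 ± 250 (n = 2), above monocytes or other macrophages at 500 ± 12 (n = 2). Tgfb1 in leptomeningeal cells was 24.5 CPM, within a range of 13.2 to 36.4 over 4 libraries. Its background was taken from choroid plexus cells of the cortical surface libraries, chosen as the larger named class with the lowest share, so a low value was given beforehand. There 2.68% of 149 cells held a Tgfb1 UMI (95% exact interval 0.736 to 6.73%, median depth 9186 UMIs). Of 755 microglia, 81.9% did (78.9 to 84.5%, median depth 6160).

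Tgfb2 and Tgfb3 were highest in classes of vessel walls, and Tgfb3 in dural cells as well. Tgfb2 was highest in cells led by Gkn3 and Gja5, the latter a connexin of arterial endothelium, at 360 ± 26.5 CPM in cortical surface libraries (n = 3) and 396 ± 122 in bone-associated ones (n = 2). Vascular smooth muscle cells (VSMCs) came next, at 176 ± 56.1 and 118 ± 5.83 (n = 2 each), with no overlap with the Gkn3 Gja5 cells. Away from vessels, Tgfb2 was 52.6 ± 5.06 in dural cells (n = 2) and 45.9 ± 26.7 in cortical surface choroid plexus cells (n = 3). In leptomeningeal cells it was 1.88 ± 3.76 (n = 4). Tgfb3 was highest in VSMCs of the cortical surface at 234 ± 51.5 (n = 2), clear of the cells led by Olfr558 at 58.6 ± 52.0 (n = 3). In the bone-associated libraries dural cells at 145 ± 7.71 and VSMCs at 127 ± 24.7 (n = 2 each) led Tgfb3 together and overlapped. In B cells, which served as background, 0 of 373 cortical surface cells held a Tgfb2 UMI, which allows a share of up to 0.804%, and 0 of 378 bone-associated cells, which allows up to 0.794%. Tgfb2 and Tgfb3 met in single cells: 173 of 259 cortical surface VSMCs held UMIs of both, as did 100 of 284 dural cells but 2 of 265 leptomeningeal cells.

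The latency proteins followed vessels too. Ltbp1, which anchors latent TGF-beta to fibronectin and fibrillin, was highest in VSMCs, at 227 ± 45.8 CPM on the cortical surface and 222 ± 93.9 CPM in the bone-associated tissue (n = 2 each), and was next highest in Olfr558 cells in both. Ltbp4, which has a role in elastic fibre assembly besides TGF-beta binding, was highest in Gkn3 Gja5 cells at 2018 ± 323 (n = 3) and 1358 ± 31.8 (n = 2), followed without overlap by endothelial cells at 392 ± 122 (n = 4) and 597 ± 37.2 (n = 2).

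The receptors were spread more widely, except for Tgfbr1. Microglia stood alone for Tgfbr1 at 1130 ± 218 CPM (n = 4), clear of the next class, cells led by H2-Eb1 and Cxcl14, at 320 ± 109 (n = 4). Without microglia in the bone-associated libraries, mast cells were first there at 192 ± 75.0 and overlapped with Cd300e Treml4 cells at 177 ± 10.5 (n = 2 each). On the cortical surface Tgfbr2 was highest in endothelial cells at 290 ± 56.3, microglia at 276 ± 32.1 and border macrophages at 264 ± 20.2 (n = 4 each), 3 classes whose ranges overlapped in turn. In the bone-associated libraries Gkn3 Gja5 cells at 255 ± 16.9, border macrophages at 248 ± 26.9, endothelial cells at 243 ± 51.8 and dural cells at 229 ± 48.5 (n = 2 each) likewise overlapped in turn for Tgfbr2. Tgfbr3 was highest in leptomeningeal cells at 242 ± 66.5 (n = 4), which overlapped with cells led by Ccl19 and Colec11 at 164 ± 48.7 (n = 4). In the bone-associated libraries Schwann cells were first for Tgfbr3 at 142 ± 50.6, overlapping with endothelial cells at 117 ± 34.7 (n = 2 each).

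Tgfbi was highest on the cortical surface in border macrophages, at 542 ± 37.3 CPM (n = 4). They were clear of monocytes or other macrophages at 287 ± 13 (n = 2) and H2-Eb1 Cxcl14 cells at 287 ± 38.9 (n = 4). Neutrophils at 166 ± 2.53 (n = 2), dendritic cells at 156 ± 40.1 (n = 4) and Cd300e Treml4 cells at 145 ± 33.3 (n = 2) followed. Microglia held 20.4 ± 7.12 (n = 4). In the bone-associated libraries monocytes or other macrophages led at 474 ± 67.8, followed by border macrophages at 307 ± 44.8, dural cells at 263 ± 13.5 and pericytes at 198 ± 0.206 (n = 2 each), none of which overlapped with its neighbour.

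**Figure D1:**
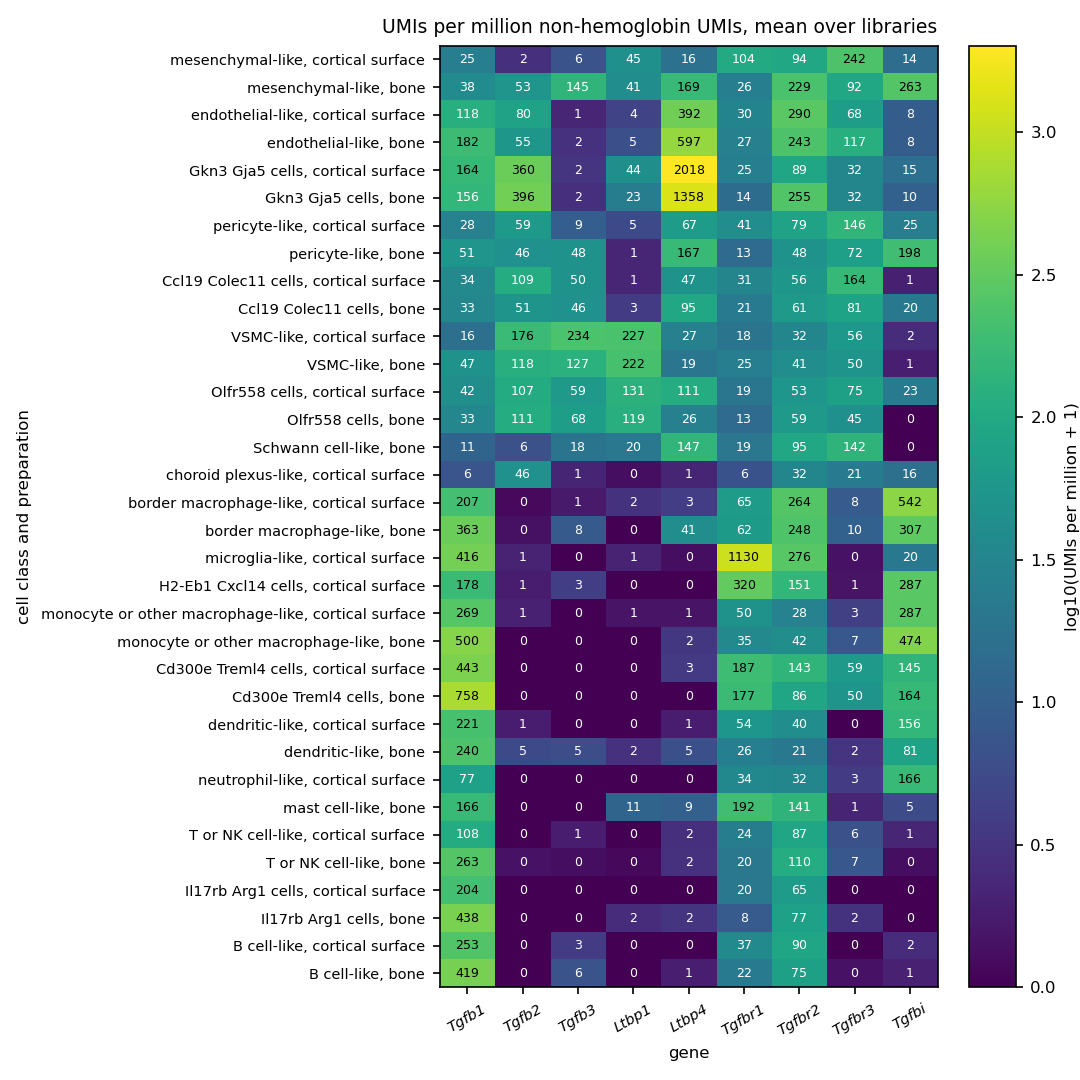
Mean level of the 9 genes (columns) in each cell class and preparation with at least 2 libraries (rows), in CPM; the number is printed in each cell and colour gives log10 of the level plus 1. Microglia stand out for Tgfbr1 at 1130, Gkn3 Gja5 cells for Ltbp4 at 2018 and 1358, and VSMCs for Ltbp1 at 227 and 222.

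To ask how the leptomeningeal cells of the cortical surface differed from the dural cells of the bone-associated tissue, the UMIs of each class were added up in each library and the libraries compared, 4 against 2. Dural cells carried far more Tgfb2, Tgfb3, Ltbp4 and Tgfbi, and more Tgfbr2, whereas leptomeningeal cells carried more Tgfbr1 and Tgfbr3. All 9 genes could be tested and 7 passed (adjusted p under 0.05 and an absolute log2 difference of at least 1.3), 2 higher and 5 lower in leptomeningeal cells. Over all 9550 genes tested, 14.8% passed, 5.75% as higher and 9.1% as lower in leptomeningeal cells. The median log2 difference of the 9 genes was -1.35 and that of all genes -0.04. Values of tested genes in this and the later comparisons are CPM scaled by TMM (a factor that evens out library composition). Their library totals took in hemoglobin UMIs. Differences are leptomeningeal minus dural on the log2 scale with the standard error taken from the test statistic. Adjusted p-values are from edgeR's quasi-likelihood test with Benjamini-Hochberg adjustment over all genes tested.

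Among the ligands, Tgfb3 was 1.54, 5.97, 6.04 and 9.45 CPM in leptomeningeal cells of CSA1 to CSA4, against 130 and 148 in dural cells of BA1 and BA2. Every dural library lay far above every leptomeningeal one, and the difference was -4.83 ± 0.42 (SE; edgeR adjusted p = 6.30e-10). Tgfb2 was 0, 7.46, 0 and 0 in the leptomeningeal libraries and 45.7 and 55.2 in the dural ones. All 10 leptomeningeal UMIs of Tgfb2 thus came from CSA2, and the groups again did not overlap, at -3.59 ± 0.52 (edgeR adjusted p = 4.80e-06). DESeq2 did not call this gene (adjusted p = 0.18). The size of the difference rested on CSA2: it was -8.77 without it, a fitted value against libraries all at 0 that is no bound, and -3.12 without CSA1. Tgfb1 was 12.3, 28.3, 36.2 and 18.9 in leptomeningeal and 30.5 and 42.9 in dural cells, which overlapped, and it did not pass (-0.72 ± 0.38, edgeR adjusted p = 0.224).

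The shares of cells told the same order. A Tgfb3 UMI was found in 71.8% of dural cells (95% exact interval 66.2 to 77%) and 3.77% of leptomeningeal cells (1.82 to 6.83%), and a Tgfb2 UMI in 43.3% (37.5 to 49.3%) and 1.89% (0.615 to 4.35%). Dural cells were deeper, at a median of 14796.5 UMIs against 7620, and B cells held a Tgfb3 UMI in 2.91% of bone-associated cells (median depth 4813) and 0.268% of cortical surface cells (median depth 3847). The leptomeningeal share of Tgfb3 was above that of the shallower B cells of its own preparation, and its interval took in the share of the bone-associated B cells. In CPM the leptomeningeal libraries, at 1.65 to 10.0, overlapped with the B cells of the cortical surface, at 0 to 11.2. With each cell thinned to 1500 UMIs, which left out 12 leptomeningeal and 3 dural cells, the shares were 16.7% against 1.19% for Tgfb3 and 5.34% against 0 for Tgfb2. Any of the 3 ligands was found in 84.5% of dural and 19.2% of leptomeningeal cells.

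Of the latency proteins, Ltbp4 was 4.62, 20.1, 18.1 and 18.9 CPM in CSA1 to CSA4 and 171 and 153 in BA1 and BA2. The dural libraries lay above all others, by -3.44 ± 0.38 on the log2 scale as leptomeningeal minus dural (edgeR adjusted p = 4.40e-08), and by -4.08 without CSA2. Ltbp1 was 43.1, 35.8, 78.5 and 18.9 against 49.1 and 28.8. Its groups overlapped and it did not pass (0.23 ± 0.38, edgeR adjusted p = 0.781).

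The receptors went both ways. Tgfbr1, the type I receptor, was 53.9, 78.3, 78.5 and 189.0 in leptomeningeal and 30.5 and 18.3 in dural cells. Every leptomeningeal library was above both dural ones, CSA4 with 21 cells being the highest, at a difference of 1.93 ± 0.41 (edgeR adjusted p = 7.50e-04). Tgfbr3, the co-receptor, was 269, 175, 193 and 293 against 103 and 72.2, again without overlap, at 1.41 ± 0.30 (edgeR adjusted p = 7.93e-04). The type II receptor Tgfbr2 took the opposite direction, at 77, 73.1, 109 and 104 against 245 and 191. It too did not overlap, at -1.35 ± 0.28 (edgeR adjusted p = 5.42e-04). Tgfbr2 and Tgfbr3 lay close to the threshold of 1.3 and kept their direction but not always their call. Tgfbr2 lost it under 8 of 17 alternatives. It was -1.16 without BA1, -1.28 without CSA1, -1.22 without CSA2, -1.10 with at least 1000 genes per cell, -1.11 at a mitochondrial limit of 20%, -1.29 with no doublet removal and -1.24 with libraries clustered alone. With each cell thinned to 1500 UMIs it was -0.95, and the adjusted p of 0.0687 (edgeR) was then above 0.05 as well. Tgfbr3 lost its call under 3 of 17, at 1.25 without BA2, 1.29 without CSA1 and 1.19 when thinned.

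Tgfbi was 4.62, 23.9, 18.1 and 9.45 in leptomeningeal cells and 254 and 248.8 in dural cells, where it was found in 58.8% of cells against 5.28% of leptomeningeal ones and 0.529% of bone-associated B cells. The difference was -3.97 ± 0.37 (edgeR adjusted p = 2.41e-09), and it was -4.95 without CSA2. Over the alternatives other than leaving out 1 library it ran from -8.28 to -2.0. The value of -2.0 came when only cells with at least 1000 genes were kept and clustered.

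**Figure D2:**
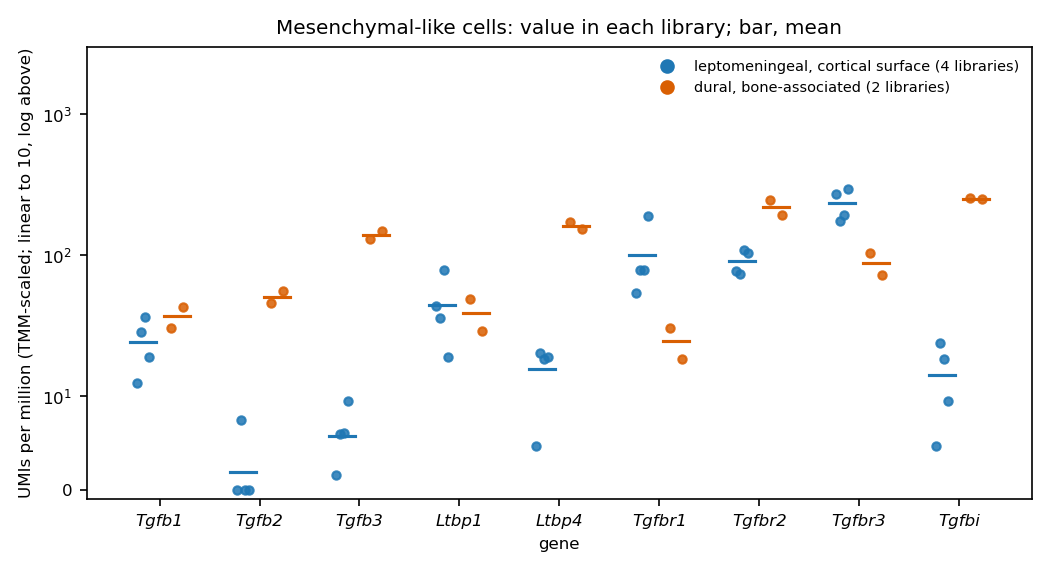
TMM-scaled CPM (linear to 10, log above) of the 9 genes in mesenchymal-like cells; points are libraries, 4 leptomeningeal and 2 dural, and bars their means. Tgfb2, Tgfb3, Ltbp4, Tgfbr2 and Tgfbi lie higher in both dural libraries, Tgfbr1 and Tgfbr3 in all 4 leptomeningeal libraries, while Tgfb1 and Ltbp1 overlap.

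The rest of the pathway moved in part with these genes. Of 12 other genes of latency and activation, 9 were tested, 1 was higher and 5 were lower in leptomeningeal cells. Ltbp2 (4.44 against 143.8 CPM on average), Thbs1, the activator thrombospondin 1 (57.3 against 564), and Fbn1, the fibrillin to which binding proteins attach (31.2 against 204), were lower, with differences of -4.98 ± 0.45, -3.41 ± 0.32 and -2.91 ± 0.33. Lrrc32, which holds latent TGF-beta on the cell surface, was higher at 56.3 against 12.6 (2.05 ± 0.38). Among 14 signalling genes tested, Smad3 (1.74 ± 0.41) and Tgfbrap1 (1.31 ± 0.40) were higher and the inhibitor Smad7 lower (-1.32 ± 0.31). Among 5 response genes tested, Klf10 (-2.06 ± 0.41), Fn1, encoding fibronectin (-1.71 ± 0.52), and the Smad co-repressor gene Skil (-1.59 ± 0.33) were lower. In the same cells the summed level of 16 immediate-early and heat-shock genes, all detected, was 1669 to 3059 CPM in leptomeningeal and 9841 to 9996 in dural libraries. Markers of other classes moved with the comparison too. The 9 VSMC markers, all detected, summed to 70.0 to 342 CPM in leptomeningeal and 805 to 924 in dural libraries. The 8 microglial markers summed to 382 to 660 in leptomeningeal and 1015 to 1074 in dural libraries. All 8 were detected in leptomeningeal cells, whereas P2ry12, Siglech and Slc2a5 were at 0 in dural cells. The microglial list holds Tmem119, which the study describes as expressed in both dura and leptomeninges. Its sum is therefore not a measure of microglial RNA alone. Microglia held the highest mean Tgfbr1 of the cortical surface classes, and the part of microglial RNA in the Tgfbr1 difference was not tested. The 8 astrocyte markers summed to 905.5 to 1289 in leptomeningeal cells, with Aqp4, Aldoc and Ntsr2 at 0, and to 43.7 to 54.5 in dural cells, with Slc1a2 and Ntsr2 at 0. The part of these sums in the differences was not tested.

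Dural cells were of 2 clusters with unlike levels of some of the 9 genes. One of 193 cells was led by Col6a5 and Kcns1, the other of 91 cells by Inmt and Apod. The leading genes of the Inmt cells also held Clec3b and Lum, which were among those of the leptomeningeal cluster too. They held Aldh1a2 as well, which the study describes as expressed in developing leptomeninges. For these cells the name dural gives the preparation only. Tgfbi was 106 and 122 CPM in the Col6a5 cells of the 2 libraries and 584 and 659 in the Inmt cells. Ltbp4 was likewise higher in the Inmt cells, at 290 and 338 against 83.0 and 138, whereas Tgfb3 was higher in the Col6a5 cells, at 156 and 176 against 87.9 and 103. Tgfb2, at 51.9 and 57.3 against 42.3 and 53.3, overlapped between them, as did Tgfb1, Ltbp1 and Tgfbr2. Both Tgfbr1, at 26.2 and 54.4 against 15.6 and 23.4, and Tgfbr3, at 87.0 and 181 against 68.1 and 80.4, lay higher in the Inmt cells. With 2 libraries a cluster these are descriptions, with no test.

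Next, border macrophages of the cortical surface were compared with microglia of the same 4 libraries, with the library as a term. Tgfbr1 was far higher in microglia and Tgfbi far higher in border macrophages, whereas Tgfbr2 did not differ. The H2-Eb1 Cxcl14 cells of these libraries were outside the comparison. They held Tgfbr1 at 320 ± 109 CPM and Tgfbi at 287 ± 38.9 (SD, n = 4 each). Of the 9 genes, 4 were tested and 2 passed, 1 in each direction, where 16.6% of 7447 genes passed (8.74% higher and 7.9% lower in border macrophages). Border macrophages held all 11 of their markers at 16710 to 20480 CPM and microglia held them at 222 to 287. The microglial list of 8 markers stood at 10440 to 12460 in microglia and 507 to 877 in border macrophages.

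Tgfbr1 was 49.0, 46.3, 112 and 68.0 CPM in border macrophages of CSA1 to CSA4 and 952, 879, 1290 and 1210 in microglia. The lowest microglial value was well above the highest macrophage value, and the difference, border macrophages minus microglia, was -4.07 ± 0.13 (edgeR adjusted p = 3.03e-16). A Tgfbr1 UMI was present in 96.3% of microglia (94.7 to 97.5%, median depth 6160 UMIs) and in 30.0% of border macrophages (26.6 to 33.4%, median depth 8151). Thinned to 1500 UMIs, with 41 and 77 cells left out, these shares were 80.1% and 7.61%. In choroid plexus cells, again chosen as background for the lowest share, the share before thinning was 4.03% (median depth 9186). Tgfbr1 and Tgfbr2 were found together in 540 of 755 microglia, 71.5%, and in 25.8% of 721 border macrophages.

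Tgfbr2 did not differ as Tgfbr1 did. It was 289, 275, 258 and 307 in border macrophages and 280, 225, 269 and 283 in microglia, which overlapped (0.11 ± 0.11, edgeR adjusted p = 0.432). Tgfb1 was 201, 247, 210 and 230 in border macrophages and 459, 469, 347 and 325 in microglia. All 4 microglial values were above all macrophage values and the adjusted p was 3.53e-06 (edgeR), but the difference of -0.84 ± 0.12 was under the fold threshold. Tgfbi was 546, 651, 523 and 603 in border macrophages and 9.43, 23.2, 24.6 and 21.3 in microglia, a difference of 4.78 ± 0.15 (edgeR adjusted p = 2.56e-16). The other 5 genes were too rare to test, and 0 of 755 microglia held a Tgfb3 UMI, which allows a share of up to 0.397%.

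**Figure D3:**
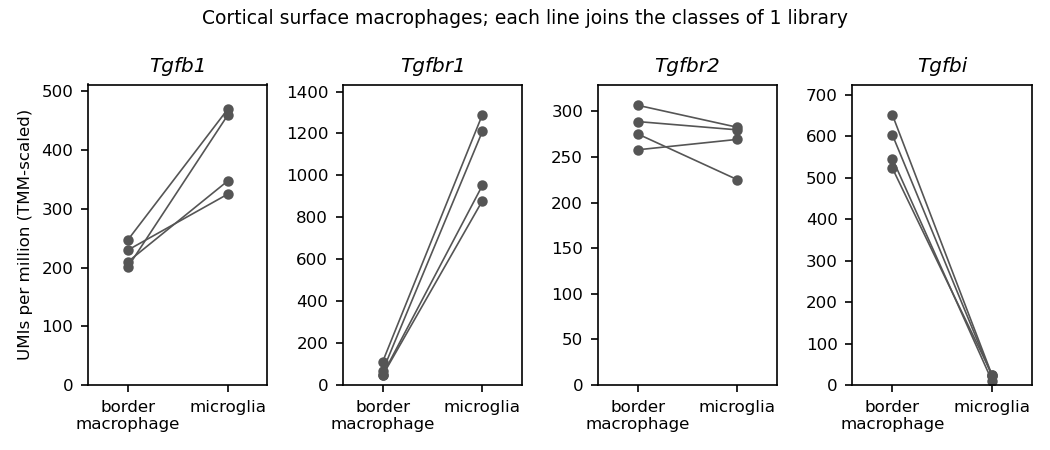
TMM-scaled CPM (linear axes from 0) of the 4 tested genes in border macrophages and microglia; each line joins both classes of 1 cortical surface library. Every line rises from macrophage to microglia for Tgfb1 and Tgfbr1 and falls for Tgfbi, whereas the values of Tgfbr2 overlap.

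Pathway genes leaned to microglia in the same libraries. Of 4 latency genes tested, Itgb5 (-2.76 ± 0.14) and Itgav (-2.30 ± 0.16), subunits of an integrin that can free TGF-beta, were lower in border macrophages. Nrros, which tethers latent TGF-beta 1 on myeloid cells, was higher there, at 291 against 118 CPM on average (1.32 ± 0.12). Of 12 signalling genes tested, 5 were lower and none higher in border macrophages. They included Smad7, at 12.6 against 430 (-5.07 ± 0.16), Pmepa1, another feedback inhibitor, at 110 against 882 (-3.05 ± 0.12), the co-receptor gene Eng (-2.76 ± 0.21) and Smad3 (-1.60 ± 0.25). Of 2 response genes tested, Skil was lower (-1.68 ± 0.14). The immediate-early and heat-shock sum was 11870 to 40140 in border macrophages and 7480 to 25310 in microglia, and its part was not tested.

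Within each class the pattern held in all 3 clusters. In the 2 larger microglial clusters, 1 of 447 cells led by Upk1b and A830008E24Rik and 1 of 287 led by Il1a and Sall3, Tgfbr1 was 1320 ± 156 and 1027 ± 217 CPM (n = 4 each). In the 3 macrophage clusters, led by Ccl7 and Ccl2, by Ms4a14 and Adam33, and by Ccl8 and Chp2, it was 58.0 ± 24.0 (n = 3), 64.8 ± 37.5 (n = 4) and 50.6 ± 43.8 (n = 3). Tgfbi in these 3 was 511 ± 49.2, 637 ± 84.1 and 509 ± 135, and 23.7 ± 3.0 and 20.4 ± 10.8 in the larger microglial ones. The third microglial cluster, of 21 cells led by Plxna4os1 and Cst3, had enough cells in CSA4 alone, where Tgfbr1 was 532 CPM and Tgfbi 0.

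Pericytes and VSMCs, the mural cells of vessels, were compared in the 4 libraries that held at least 10 of each (BA1, BA2, CSA1 and CSA2), with the library as a term. The Ccl19 Colec11 and Olfr558 cells, which were also led by mural markers, were outside the comparison. VSMCs were richer in the ligands Tgfb2 and Tgfb3 and in Ltbp1, and pericytes in Ltbp4 and Tgfbi. All 9 genes were tested and 5 passed, 2 higher and 3 lower in pericytes, where 15.9% of 8169 genes passed (7.16% higher and 8.75% lower). Values are given in the order BA1, BA2, CSA1 and CSA2.

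Tgfb2 was 62.7, 20.9, 51.0 and 30.1 CPM in pericytes and 141, 142, 230 and 160 in VSMCs, without overlap, at -2.19 ± 0.25 as pericyte minus VSMC (edgeR adjusted p = 2.35e-05). Tgfb3 was 39.2, 52.4, 7.84 and 4.64 in pericytes and 167, 137, 288 and 231 in VSMCs, at -3.05 ± 0.49 (edgeR adjusted p = 3.81e-04). Pericytes of the bone-associated libraries held more Tgfb3 and VSMCs less than those of the cortical surface, so that the difference was -1.60 ± 0.32 within the former and -5.42 ± 0.39 within the latter, and -4.32 without BA2. In the mural cells outside the comparison, Tgfb3 overlapped between the preparations. In CPM it was 33.4 to 69.1 on the cortical surface against 35.3 and 55.8 in Ccl19 Colec11 cells. In Olfr558 cells it was 10.3 to 114 against 63.6 and 73.3. Ltbp1 was all but absent from pericytes, at 0, 2.62, 7.84 and 2.32, and 332, 194, 276 and 228 in VSMCs (-6.10 ± 0.36, edgeR adjusted p = 1.35e-07).

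Ltbp4 went the other way, at 118, 207, 51.0 and 111 in pericytes and 19.1, 26.3, 29.7 and 29.9 in VSMCs (2.13 ± 0.31, edgeR adjusted p = 1.56e-04). Tgfbi was 172, 204, 0 and 25.5 in pericytes and 0.681, 1.5, 2.35 and 1.15 in VSMCs (5.82 ± 0.66, edgeR adjusted p = 2.15e-05). Its groups overlapped, since CSA1 pericytes held none, and the difference was carried by the bone-associated libraries, where it was 7.24 ± 0.48, and was too rare to test in the cortical surface libraries alone. The receptors Tgfbr1 (0.16 ± 0.39), Tgfbr2 (0.39 ± 0.26) and Tgfbr3 (0.51 ± 0.23) and the ligand Tgfb1 (0.39 ± 0.31) did not pass, and all 4 overlapped between the classes. Within libraries, Tgfbr1 was 7.84 and 18.3 in pericytes against 29.3 and 30.0 in VSMCs of BA1 and BA2. In CSA1 and CSA2 it was 23.5 and 51.0 against 12.5 and 27.6. Tgfbr2 was likewise lower in pericytes of BA1 and BA2 and higher in those of CSA1 and CSA2.

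Whether the difference between pericytes and VSMCs itself differed between preparations was tested with an interaction term, chosen after the values were seen. As bone-associated minus cortical surface, it was 3.82 ± 0.68 for Tgfb3 (edgeR adjusted p = 2.09e-06) and 4.21 ± 1.26 for Tgfbi (edgeR adjusted p = 0.0219). For Ltbp4 it was 1.35 ± 0.42 (edgeR adjusted p = 0.031), and 385 of 8169 genes passed an adjusted p of 0.05. Tgfbr1 (-1.85 ± 0.70, edgeR adjusted p = 0.118) and Tgfbr2 (-0.95 ± 0.50, edgeR adjusted p = 0.364) did not pass. These p-values matched a normal distribution of the difference over its standard error. They therefore rest on a spread shared over genes, not on each gene's own spread between the few libraries. The summed level of the 8 mesenchymal markers in pericytes was 2000 to 2283 CPM in the bone-associated libraries, where all 8 were detected, and 676 to 984 in the cortical surface libraries, where Serpinf1 and Lum were at 0 and 6 were detected. The sum was 421 to 554 in VSMCs. The 9 VSMC markers summed to 3245 to 4643 in bone-associated pericytes, with Cnn1 at 0, and to 2383 to 2664 in cortical surface ones, with Pln at 0, and the 7 pericyte markers to 5222 to 5268 and 6213 to 7889. The part of these sums in the difference was not tested.

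**Figure D4:**
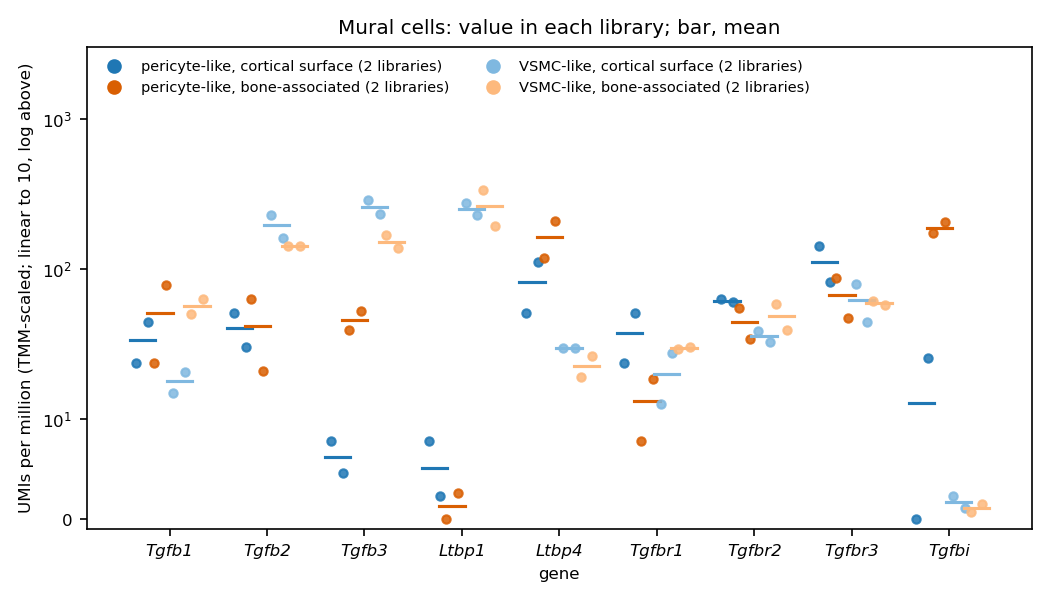
TMM-scaled CPM (linear to 10, log above) of the 9 genes in pericyte-like and VSMC-like cells of BA1, BA2, CSA1 and CSA2; points are libraries and bars means of 2 libraries. Ltbp1 reaches at most 7.84 in pericytes and at least 194 in VSMCs, and Tgfbi in pericytes is 172 and 204 in the bone-associated libraries against 0 and 25.5 in the cortical surface ones.

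Of the pathway lists, 8 latency genes were tested between pericytes and VSMCs. Thbs1 was lower in pericytes (28.8 against 685 CPM on average, -4.67 ± 0.44), and Fbn1 (3.33 ± 0.46) and the protease gene Mmp14 (1.52 ± 0.26) were higher. Among 14 signalling genes, Eng (2.03 ± 0.22) and Acvrl1 (1.90 ± 0.28), a co-receptor and a type I receptor better known from endothelium, were higher in pericytes. Smad7 (-1.66 ± 0.29) and the ubiquitin ligase gene Smurf1 (-1.45 ± 0.37) were lower. Of 6 response genes tested, 2 were lower in pericytes, among them Fn1 (-2.56 ± 0.38). The immediate-early and heat-shock sum was 2442 to 25340 CPM in pericytes and 29100 to 41180 in VSMCs, and its part was not tested.

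The immune and endothelial classes were then compared between the preparations, cortical surface minus bone-associated. T or NK cells held less Tgfb1 on the cortical surface. It was 117, 130, 91.3 and 93.0 CPM in CSA1 to CSA4 and 262 and 279 in BA1 and BA2, which did not overlap. The difference was -1.36 ± 0.21 (edgeR adjusted p = 0.00149), and this was the only 1 of the 3 tested genes to pass, where 7.72% of 5839 genes passed (2.02% higher and 5.7% lower on the cortical surface). Its size fell under the fold threshold, with the same direction, without BA2 (-1.29), without CSA3 and CSA4 (-1.20), with a mitochondrial limit of 20% (-1.22) and with the replicate number as a block (-1.13). Tgfbr1 (0.31 ± 0.30) and Tgfbr2 (-0.38 ± 0.19) did not pass.

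The same order was seen in some subsets led by like genes, as a description over 2 libraries each. On the cortical surface these were CSA3 and CSA4 in every subset given, the libraries with most hemoglobin. Other T or NK clusters are not given, among them those led by Cd8a, which on the cortical surface held 17 cells in CSA1 and 14 in CSA2. The mix of subsets also differed between the preparations. Cells led by Cd163l1 were 44 of 557 T or NK cells on the cortical surface and 162 of 604 in the bone-associated libraries. A cluster of 126 cells led by Ctla4 was found in the bone-associated libraries. The part of this mix in the difference was not tested. Cells led by Klra4 and Klra8, receptors of NK cells, held Tgfb1 at 422 ± 40.5 in bone-associated libraries, and those led by Cma1 and Klra8 held 120 ± 23.9 in CSA3 and CSA4. Cells led by Cd163l1, among whose leading genes were those of the gamma-delta T cell receptor, held 219 ± 59.8 and 104 ± 14.6. Cells led by Dapl1 held 111 ± 14.4 and 65.8 ± 9.23.

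In T or NK cells the pathway genes that passed were all lower on the cortical surface. They were Furin, which cleaves the propeptide (-2.38 ± 0.45, of 2 latency genes tested), and 4 of 9 signalling genes: Tgif1 (-3.25 ± 0.35), Pmepa1 (-2.69 ± 0.22), Bambi (-2.22 ± 0.49) and Smad7 (-2.20 ± 0.18). Skil was lower too (-2.06 ± 0.35, of 2 response genes). The immediate-early and heat-shock sum was 1731 to 9228 CPM in T or NK cells of the cortical surface and 6553 to 8112 in bone-associated ones, and its part was not tested.

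In border macrophages none of the 4 tested genes passed, where 6.17% of 7746 genes passed (1.5% higher and 4.67% lower on the cortical surface). By edgeR 2 of the 4 had an unadjusted p under 0.05, and DESeq2 called 0. Tgfb1 was 180, 221, 191 and 207 CPM in CSA1 to CSA4 and 449 and 328 in BA1 and BA2, without overlap, but the difference of -0.94 ± 0.21 (edgeR adjusted p = 0.0183) was under the fold threshold. Tgfbi was 489, 583, 475 and 543 against 286 and 379 (0.64 ± 0.22, edgeR adjusted p = 0.109). Tgfbr1 (-0.24 ± 0.37) and Tgfbr2 (-0.06 ± 0.19) overlapped. The pathway genes that passed were lower on the cortical surface: Thbs1 (-3.25 ± 0.50) and Furin (-1.79 ± 0.30) of 6 latency genes tested, Tgif1 (-2.43 ± 0.33), Acvrl1 (-1.86 ± 0.28), Eng (-1.83 ± 0.34) and Smad7 (-1.68 ± 0.38) of 13 signalling genes, and Skil (-2.35 ± 0.41) and Klf10 (-1.94 ± 0.27) of 2 response genes. The immediate-early and heat-shock sum was 11870 to 40140 CPM on the cortical surface and 16750 to 29280 in bone-associated macrophages. The 11 markers of border macrophages summed to 16710 to 20480 on the cortical surface and 9783 to 10830 in the bone-associated libraries. The 7 markers of monocytes or other macrophages summed to 4.56 to 58.0, with Vcan at 0, and 139 to 403, with F10 at 0. The part of these sums was not tested.

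In endothelial cells none of 6 tested genes passed, where 7.5% of 7777 genes passed (2.15% higher and 5.35% lower on the cortical surface). By edgeR 3 of the 6 had an unadjusted p under 0.05, and DESeq2 called 0. Tgfb1 was 119, 125, 134 and 89.4 on the cortical surface and 170 and 203 in the bone-associated libraries (-0.69 ± 0.20, edgeR adjusted p = 0.0258). Tgfbr3 was 90.6, 75.1, 49.1 and 52.4 against 139 and 97.3 (-0.78 ± 0.24, edgeR adjusted p = 0.0400). Both lay lower in every cortical surface library on this scale but under the fold threshold, and in CPM without TMM scaling Tgfbr3 overlapped, at 49.2 to 95.6 against 92.0 and 141. Ltbp4 was 453, 492, 344 and 253 against 613 and 603 (-0.65 ± 0.23, edgeR adjusted p = 0.0761), and Tgfb2 overlapped (0.57 ± 0.29). The Ltbp4 difference changed sign under 3 of 17 alternatives. Gkn3 Gja5 cells, also led by most endothelial markers, were outside the comparison. In CPM their Ltbp4 went the other way, at 1655 to 2271 in 3 cortical surface libraries against 1336 and 1381. Of 7 latency genes, Thbs1 (0.689 against 72.7 on average, -5.67 ± 0.49), Ltbp3 (-2.42 ± 0.37) and Fbn1 (-2.23 ± 0.52) were lower in endothelial cells of the cortical surface. Smad6 (-1.47 ± 0.36) and Bambi (-1.45 ± 0.26) of 14 signalling genes and Ctgf (-3.50 ± 0.30) of 5 response genes were lower there too. The immediate-early and heat-shock sum was 2947 to 16840 there and 22220 to 25260 in bone-associated endothelium. The 8 endothelial markers summed to 16230 to 18210 and 11310 to 12370, and the 8 mesenchymal ones to 6.55 to 34.6 and 74.3 to 75.9, all detected in both. The part of these sums was not tested.

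Endothelial clusters differed more among themselves, and their mix differed between the preparations. Cells with Btnl9 and Gpihbp1 among their leading genes were 230 of 449 endothelial cells in the bone-associated libraries and 11 of 467 on the cortical surface. The part of this mix in the differences between the preparations was not tested. In the bone-associated libraries, cells led by Btnl9 and Gpihbp1, genes of capillaries outside the brain, held Ltbp4 at 888 and 1128 CPM and Tgfb2 at 26.6 and 40.9. Cells led by Slc38a5 and Slc22a8, with the blood-brain barrier transporter gene Slco1c1 among their leading genes, held Ltbp4 at 228 and 344 and Tgfb2 at 59.4 and 155. On the cortical surface, cells led by Car5a and Mfsd2a, the latter a lipid transporter of the barrier, held Tgfb2 at 135 ± 49.0, in a range of 74.8 to 185, against 34.5 ± 15.8 in cells led by Col6a6 and Lhx6, in a range of 12 to 49.0 (n = 4 each). The Selp and Sele cells of the bone-associated libraries, led by adhesion molecules of venous endothelium, held Tgfb2 at 0 and 11.3.

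Across all 14 classes with at least 2 libraries of each preparation, Tgfb1 lay higher in every bone-associated library than in every cortical surface library in 7: T or NK cells, border macrophages, monocytes or other macrophages, Cd300e Treml4 cells, cells led by Il17rb and Arg1, endothelial cells and VSMCs. The cortical surface side was 4 libraries for T or NK cells, border macrophages and endothelial cells, and 2 for the rest of those named. These 2 were CSA1 and CSA2 for VSMCs. For monocytes or other macrophages, Cd300e Treml4 cells and Il17rb Arg1 cells they were CSA3 and CSA4, the libraries with most hemoglobin. Full separation arises more easily by chance with 2 against 2 libraries. In the other 7 classes the ranges overlapped, among them B cells at 407 and 431 against 153 to 417. Over the 9 genes and 14 classes, 78 pairs passed the filter on low values, of which 22 lay higher in every bone-associated library and 16 in every cortical surface one. Over all genes the same held for 16.3% and 21.2% of 103664 gene-by-class pairs.

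**Figure D5:**
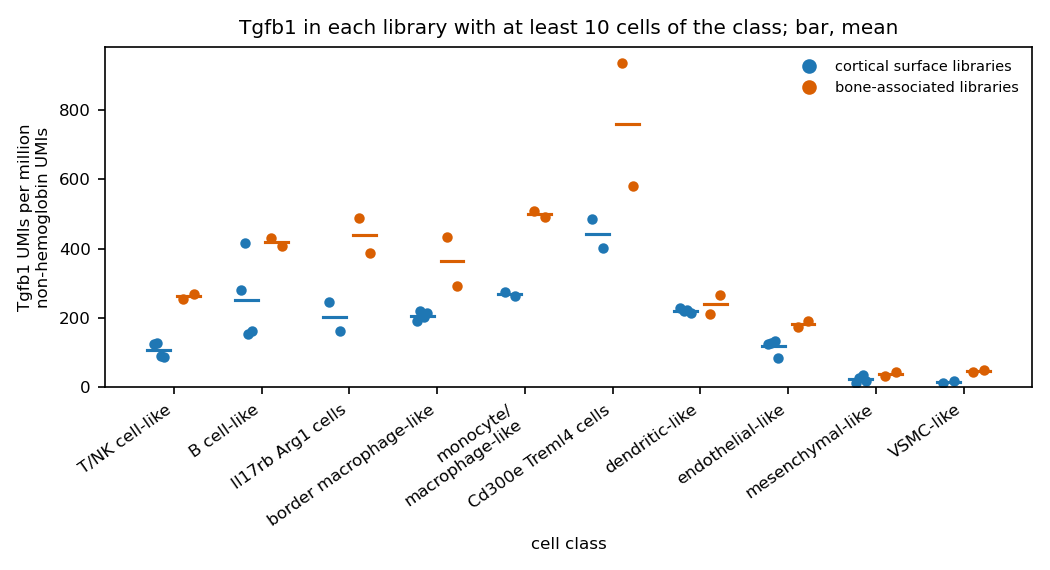
Tgfb1 in CPM (linear axis from 0) in 10 classes; points are libraries with at least 10 cells of the class, blue for cortical surface and orange for bone-associated, and bars are means. T or NK cells lie at 88.8 to 128 on the cortical surface and 256 and 269 in the bone-associated libraries, while B cells, dendritic cells and mesenchymal cells overlap.

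The cells of each class were pooled over all libraries of a preparation, which gave 33 pools. Pools of the same preparation share its libraries. Over these pools and among 8473 genes, genes like each ligand and Tgfbi in pattern were found by Pearson's r of log2 of the level plus 1, as a description. For Tgfb1 they included Clic1 (r = 0.87) and B2m (0.87), and for Tgfb2 they were Msrb3 (0.96), Pls3 (0.93) and Tm4sf1 (0.93). For Tgfb3 they were Slit3 (0.92), Kcne4 (0.90) and Myl9 (0.90), and for Tgfbi Lyz2 (0.84), Ifi204 (0.83) and Ifi207 (0.82). Among the 9 genes themselves, Tgfb2 lay closest to Ltbp4 (r = 0.80). Tgfb1 ran against Tgfb3 (r = -0.63), Tgfbr3 (-0.61), Tgfb2 (-0.59) and Ltbp1 (-0.54).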

How the data were processed

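The authors deposited, for each of 6 libraries, raw counts of UMIs per gene and cell barcode. The labels give Cell Ranger 3 and mm10, and the file headers Cell Ranger 6.1.2. The labels describe a papain digest of the ventricular-subventricular zone, the study's methods a collagenase digest of cortical surface or inner skull. No annotation of cells was used here.

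A barcode needed 500 genes or more, and no more than 10% of its UMIs could be mitochondrial. In each library 0.8% per 1000 cells with the highest doublet scores, 124 in all, were left out. Free RNA was not corrected. Each preparation was clustered (2000 variable genes, 30 components, 15 neighbours, Leiden resolution 1.5, igraph 0.11.9, leidenalg 0.10.2, Python 3.11.15) without the 9 genes and pathway lists, so clusters are not the authors'. A cluster led by at least 3 markers of 1 class took its name, unless it was led by a large share of another class's markers too or its 10 leading genes held more of another class. Shared markers were allowed among microglia, border macrophages, monocytes or other macrophages and dendritic cells, and between choroid plexus and ependymal cells. The bone-associated border macrophages were led by 11 markers of their own class and 4 of microglia. Clusters led by 1 of 6 sets of genes, chosen after the clusters had been seen, stand under those genes even where markers of a class led them, and the rest stayed unnamed.

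UMIs summed per library and class (at least 10 cells) were tested with edgeR 4.0.16 (R 4.3.3; quasi-likelihood, TMM, genes seen in more than 10% of cells in at least 1 group, Benjamini-Hochberg). Standard errors are the absolute log2 difference over the root of the F statistic. The tests ran on simulated counts first. Alternatives were DESeq2 1.42.0, other scaling, filters and clusterings, 1500 UMIs per cell, a replicate block and leaving out libraries. All 9 genes are named, with up to 4 called genes per pathway list and the 3 genes most like each ligand and Tgfbi in pattern, except that some results are not reported here. The genes and lists were chosen with earlier results of these data known, and the 16 immediate-early and heat-shock genes after seeing these data. Libraries are pools with no stated link between them, so p-values measure the spread between libraries, which edgeR estimates in part from all genes. Those of the interaction term rest on the spread shared over genes, not on each gene's own. Intervals (95%, Clopper-Pearson) and limits from 3 counts cover counting error only.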

Additional observations from a re-analysis of the deposited data

Results flagged for a closer look

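Of 30 groups of 4 libraries checked, 2 held 1 library far from the others. Chance does so in about 1 in 20 independent groups of normally distributed values. That rate need not hold here, since border macrophages of the cortical surface entered 2 comparisons and some values were 0. For Tgfb2 in leptomeningeal cells, CSA2 stood at 7.46 CPM and the others at 0. For Ltbp4 in leptomeningeal cells, CSA1 stood at 4.62 and the others at 18.1, 18.9 and 20.1.

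The difference between pericytes and VSMCs differed between the preparations for 3 of the 9 genes, by an interaction term chosen after seeing the data. As bone-associated minus cortical surface on the log2 scale it was 3.82 for Tgfb3, 1.35 for Ltbp4 and 4.21 for Tgfbi. No explanation was tested.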

How the results depend on the processing

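Of 566 alternative values of the differences of the 9 genes, 527 kept their direction and side of the threshold, 16 lost a call in the same direction (12 of them between leptomeningeal and dural cells, for Tgfbr2, Tgfbr3 and Tgfb2, and 4 for Tgfb1 in T or NK cells) and 23 changed sign, none of them called. Of 198 alternative counts, 180 stayed within 1.5 times, and of 702 alternative levels 617 moved by less than the spread between libraries. Thinning to 1500 UMIs moved 103 of 117 shares. It also left 583 called genes between leptomeningeal and dural cells (4 of the 9 genes), 619 between border macrophages and microglia, 666 between pericytes and VSMCs, and, between the preparations, 295 in endothelial cells, 130 in border macrophages and 208 in T or NK cells. With no gene filter, 2213 genes were called between border macrophages and microglia, and 944, 858 and 782 between preparations in endothelial cells, border macrophages (2 of the 9 genes) and T or NK cells. Without CSA3 and CSA4, 201 were called in T or NK cells. Leaving out 1 library gave 240 to 482 in border macrophages between preparations, the fewest without BA2, and 0 to 1 of the 9 genes in T or NK cells, 0 without BA2.

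The replicate numbers in the labels join only 2 libraries of each preparation and name no shared animals. With the replicate block 0 of the 9 genes were called in T or NK cells, as without CSA3 and CSA4 and at a mitochondrial limit of 20%. The other counts stayed within 1.5 times under the block. The cause of these changes was not tested.

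The changes of sign, on the log2 scale, were as follows. Ltbp1 between leptomeningeal and dural cells was -0.0990 without BA2 (to 0.57 leaving out others). Tgfbr2 between border macrophages and microglia was -0.20 when thinned. Tgfbr1 between pericytes and VSMCs was -0.00552 with no gene filter, -0.20 at a mitochondrial limit of 20%, -0.22 with no doublet removal, -0.13 with libraries clustered alone, -0.97 in the bone-associated libraries only and -0.36 without CSA2 (to 0.48 without BA2), and Tgfbr2 was -0.16 in the bone-associated libraries only. In endothelial cells Ltbp4 was 0.0440 with at least 1000 genes per cell, 0.0917 at the 20% limit and 0.0332 with no doublet removal. Tgfbr1 there was -0.000808 with DESeq2 size factors, -0.0324 with no gene filter, -0.28 without CSA3 and CSA4, -0.28 with the replicate block and -0.18 to 0.36 leaving out 1 library. In border macrophages between preparations Tgfbr1 was 0.0632 without BA2 (from -0.54 without CSA3) and Tgfbr2 0.0310 with libraries clustered alone, and in T or NK cells Tgfbr1 was -0.0114 without CSA4 (to 0.43 without CSA3).

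Tgfb2, Tgfb3, Ltbp1, Ltbp4 and Tgfbr3 were read in too few cells of the compared immune classes to be tested there. Few cells stood behind BA1 (16 border macrophages, 18 pericytes and 32 dural cells) and the leptomeningeal values of CSA3 (30 cells) and CSA4 (21), where few counts limit the precision. CSA3 and CSA4 held 0 cells named VSMCs, but 4 and 18 Olfr558 cells, which were led by markers of pericytes and VSMCs.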

Other observations

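Some classes outside the comparisons also held these genes. Choroid plexus cells of the cortical surface libraries, 149 in all, held a Tgfb2 UMI in 35.6% (95% exact interval 27.9 to 43.8%), though a Tgfb1 UMI in 2.68%. Cells led by Ccl19 and Colec11 held Tgfb2 at 109 ± 30.3 CPM on the cortical surface (SD, n = 4), in a range of 82.2 to 151, above the 24.0 and 77.2 of the bone-associated libraries. Tgfbr3 in these cells was likewise 100.2 to 209 against 69.4 and 92.3. Gkn3 Gja5 cells held Tgfbr2 at 86.5 to 92.1 in 3 cortical surface libraries and at 244 and 267 in the bone-associated ones. Dendritic cells held Tgfbi at 116 to 208 on the cortical surface and 65.1 and 96.7 in the bone-associated libraries. These were not tested.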
